A study of Mus musculus with 12 samples.

Results

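Yellow fluorescent protein (YFP)-positive cells of the Bmi1 lineage, called Bmi1-CPC (Bmi1+ cardiac progenitor cells) by the study, were compared between mouse hearts after acute myocardial infarction (AMI) and hearts in homeostasis. The comparison uses 8 of the 12 samples of the series, 4 pools of cells after AMI and 4 pools in homeostasis, and all genes with a normalized read count above 1 in at least 4 of these 8 samples, which were 12486 of the 12528 genes in the table. The question was which transcripts change in these cells after severe injury to the heart.

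All mice were adult C57BL/6 animals of the genotype Bmi1CreER/+;Rosa26YFP/+, with the same age range in both groups, so that every animal, injured or not, carried 1 Bmi1 allele with the tamoxifen-inducible Cre recombinase and 1 conditional YFP reporter allele. All received 3 injections of tamoxifen (TM), 9 mg per 40 g body weight every 24 h, after which YFP stays on in cells that expressed Bmi1 at that time and in all of their descendants. In the AMI group the infarct was made 5 days after TM, and the hearts were collected 5 days after the infarct, with 2 to 3 mice in each pool. In the homeostasis group the hearts were collected 5 days after TM, with 6 mice in each pool. No sham operation is described for the homeostasis mice, and the time since TM and the number of mice in a pool differed with the injury, so that these and the infarct cannot be told apart. Hearts were flushed with saline to clear blood and digested with collagenase, and YFP+ cells were sorted. The study describes removal of CD45+ leukocytes for its Sca-1 population and does not mention it for the YFP+ cells. Whether these leukocytes were removed here is therefore not known. The sample titles read as SCA-1+ YFP+, whereas the methods name YFP as the sorted label. The 4 remaining samples of the series, Sca-1+ YFP-negative cells in homeostasis, were not used here.

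Bmi1 is a subunit of Polycomb repressive complex 1, which places ubiquitin on histone H2A and holds developmental genes and cell cycle inhibitors silent, and it is known for the upkeep of adult stem cells in blood, intestine and other tissues. In the days after an infarct, dead myocardium is cleared by neutrophils and then by monocytes and macrophages, while resident fibroblasts divide, turn into matrix-secreting myofibroblasts and build the collagen scar. Heart interstitium, from which these cells were sorted, also holds capillary endothelium, pericytes, lymphatics and resident macrophages.

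The AMI libraries held 6784686 to 8078721 reads in genes and the homeostasis libraries 4063619 to 4993906, without overlap (exact permutation test over samples, two-sided, p = 0.0286, the smallest that 4 against 4 allows). Reads of mt-Rnr2, a mitochondrial ribosomal RNA, made up 20.3% to 33.4% of each library after AMI and 25.0% to 32.8% in homeostasis (exact permutation test, two-sided, p = 0.343). Pearson correlations of log2 values over the tested genes were 0.977 to 0.984 between AMI samples, 0.959 to 0.979 between homeostasis samples and 0.891 to 0.940 between the groups, given as a description. Female and male RNA was present in uneven amounts. Xist, the RNA of the inactive X chromosome, had 1024, 1355, 1471 and 1946 normalized read counts after AMI and 717, 1807, 1377 and 1.80 in homeostasis. Homeostasis replicate 4, with 7 Xist reads, held almost only male RNA. Its reads of the Y-linked Ddx3y (341) and Kdm5d (178) were the highest of the homeostasis pools. Of 5 X- and Y-linked markers, 0 passed the test. The Y-linked Ddx3y passed as higher after AMI in limma with equal column totals (log2 fold change 1.08, adjusted p = 0.0263). It also passed without homeostasis replicate 4 (1.44, adjusted p = 0.00984). Homeostasis replicate 2 stood apart in immediate early genes, as given below. Bmi1 itself (ENSMUSG00000026739) was read at 43.8, 41.1, 47.6 and 49.7 after AMI against 45.1, 43.4, 46.2 and 60.0 in homeostasis, and the groups overlapped. Its log2 fold change was -0.09 ± 0.12 (SE; limma, Benjamini-Hochberg adjusted p = 0.594). Bmi1 shares a long near-identical stretch with the pseudogene Gm5946, so its count may hold reads of both.

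The transcriptome of the YFP+ cells changed widely after AMI. Of the 12486 tested genes, 5421 passed limma at a Benjamini-Hochberg adjusted p under 0.05 (43.4%), of which 2671 were higher after AMI (21.4%) and 2750 lower (22.0%). Large changes ran mostly upward: 834 genes were over 2-fold higher (6.68%) and 504 over 2-fold lower (4.04%), 168 over 4-fold higher (1.35%) and 28 over 4-fold lower (0.224%), and 49 over 8-fold higher (0.392%) and 7 over 8-fold lower (0.0561%). The median log2 fold change over all tested genes was -0.02. The near-even split depended on scaling. Higher genes made up 49.3% of the calls with the authors' normalization and 61.2% with equal column totals, with 2804 genes higher and 1777 lower. All fold changes are on the log2(value + 1) scale, AMI over homeostasis, which understates changes of low genes, and a gene is said to rise, fall or change only where it passed this test.

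**Figure D1:**
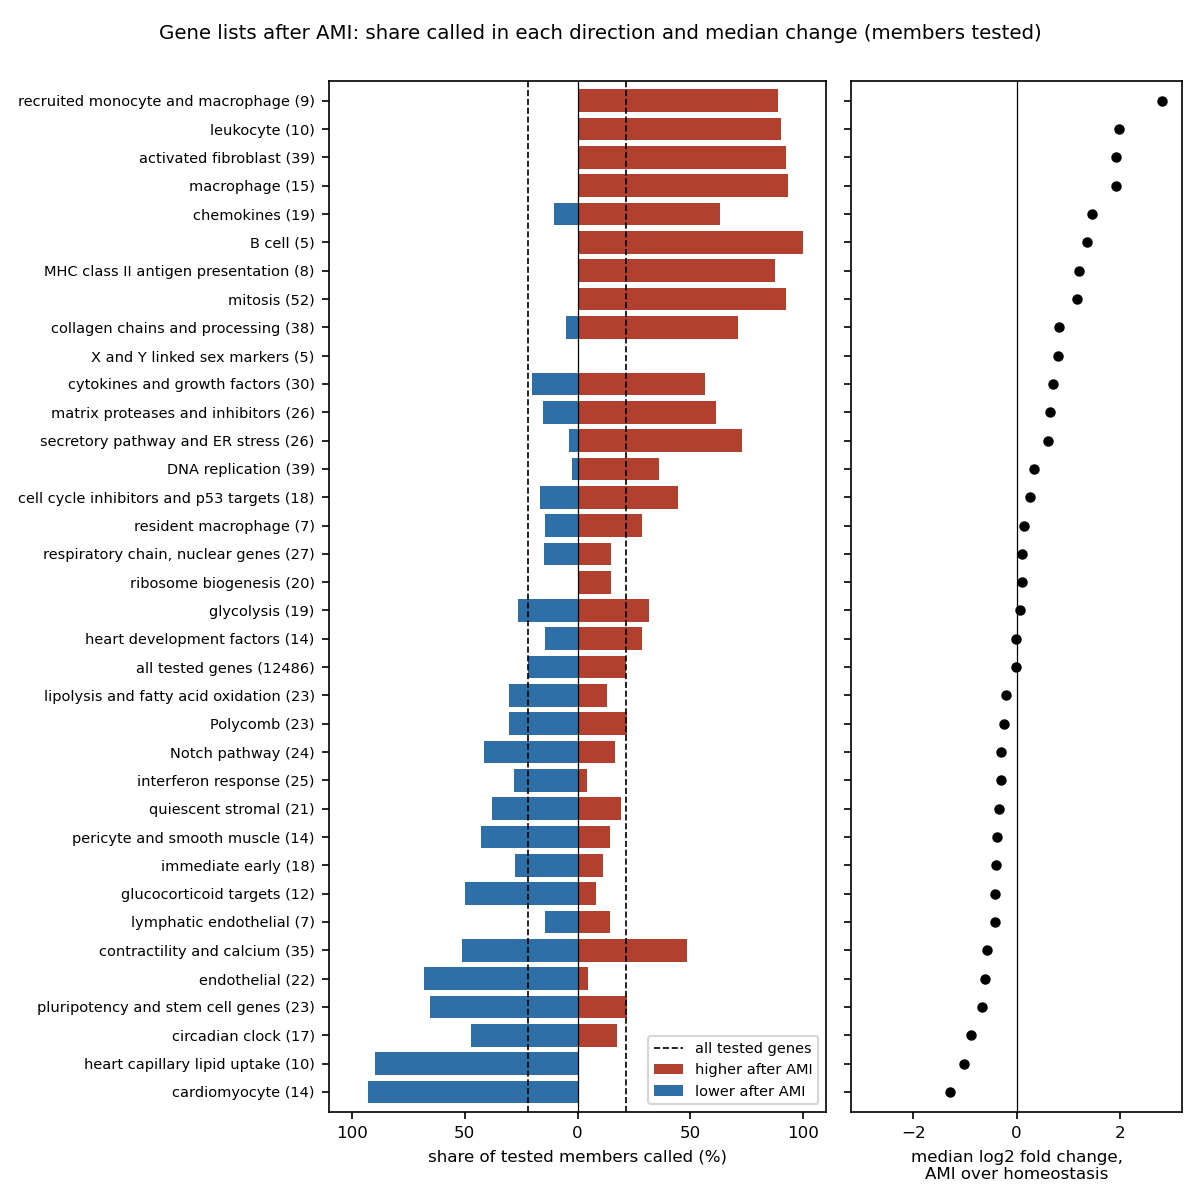
Left, share of the tested members of each gene list that were higher (red, to the right) or lower (blue, to the left) after AMI, in percent, with the number tested in brackets and dashed lines at the share of all tested genes, 21.4% higher and 22.0% lower. Right, median log2 fold change of the same members, AMI over homeostasis: recruited monocyte, leukocyte and fibroblast lists lie at the top and cardiomyocyte and capillary lists at the bottom.

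By size, the changes with the highest values belonged to scar matrix and to immunoglobulins. Among genes that reached a group mean of 10 in either group and did not overlap, the 15 largest rises held Cthrc1, which limits collagen deposition and marks activated fibroblasts, Lox, the enzyme that crosslinks collagen, Tnc (tenascin-C) and Postn (periostin), 2 matrix proteins of healing wounds, Wisp1, a secreted signal of the CCN family, Col11a1, a fibrillar collagen chain, and the adipokine-like C1qtnf3. The immunoglobulin genes Igj, Igkc and Ighm and 3 kappa variable segments were also among them. The 15 largest falls held the clock genes Per2, Per3 and Hlf, the glucocorticoid-inducible transcription factor Zbtb16, the retinoid enzymes Adh1 and Cyp26b1, the metalloprotease inhibitor Timp4, the methyltransferase Inmt, the desmosomal linker Ppl and the cadherin Cdh23. The other 7 genes of the 30 are predicted genes, pseudogenes or transcripts with no role given here.

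**Figure D2:**
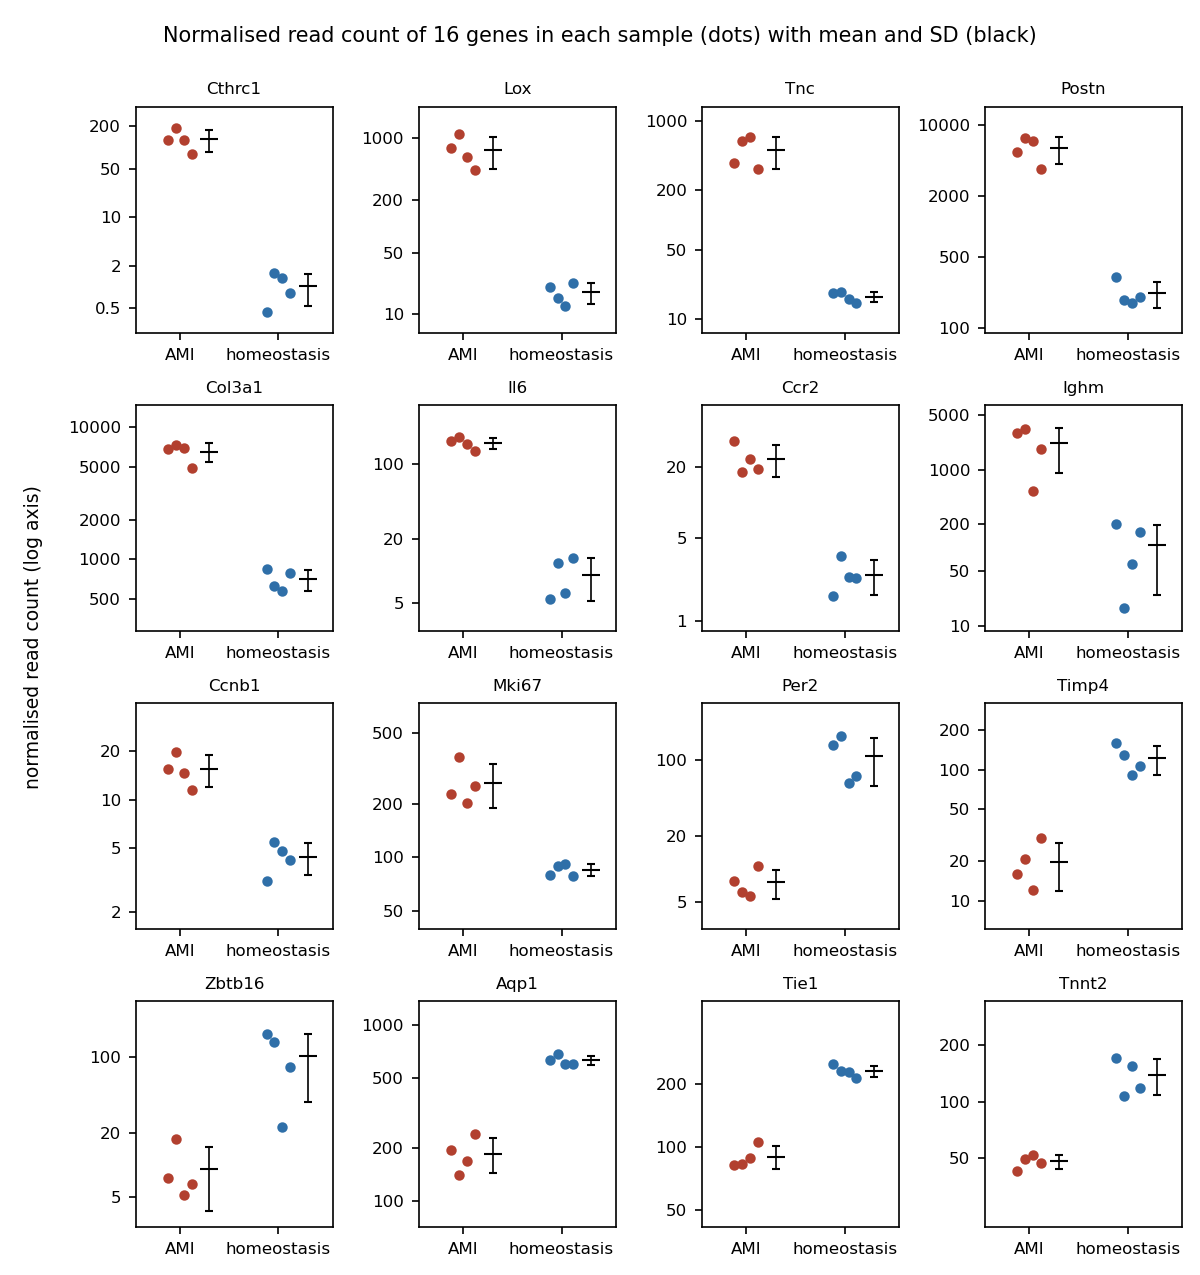
Normalized read count of 16 genes in each sample, on log axes that differ between panels, with AMI (red) left of homeostasis (blue) and the mean and SD of the 4 samples in black. Cthrc1, for example, lies between 80.1 and 190 after AMI and between 0.444 and 1.60 in homeostasis. The groups do not overlap in any of the 16 panels, beside 40.6% of all tested genes without overlap. Several of these genes were named by a rule that asked for no overlap, so for them this was fixed in advance.

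Genes of mitosis rose together. Of the 52 tested members of the mitosis list, 48 were higher after AMI and 0 lower, beside 21.4% and 22.0% of all tested genes, with a median log2 fold change of 1.18. The summed level of the list was 1188, 1825, 1096 and 1168 after AMI and 530, 504, 509 and 440 in homeostasis. AMI replicate 2 was the highest, and the other 3 AMI pools were still above all homeostasis pools.

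Cyclin B1 (Ccnb1, ENSMUSG00000041431), which starts mitosis together with the kinase Cdk1, had normalized read counts of 15.6, 19.9, 14.6 and 11.6 after AMI against 3.11, 5.44, 4.75 and 4.21 in homeostasis. Its log2 fold change was 1.61 ± 0.20 (SE, limma, adjusted p = 8.03e-05), although reads may be shared with Ccnb1 pseudogenes. Cdk1 had 10.0, 15.6, 8.61 and 11.1 after AMI and 2.81, 3.73, 3.29 and 3.96 in homeostasis, and changed by 1.45 ± 0.20 (adjusted p = 1.52e-04). In both genes the lowest AMI pool was above the highest homeostasis pool. Mki67, the proliferation antigen of the mitotic chromosome surface, had 227, 366, 201 and 252 after AMI and 79.2, 89.7, 91.5 and 78.9 in homeostasis. Top2a, which untangles sister chromatids, had 97.6, 158, 85.2 and 103 after AMI and 36.5, 26.6, 34.2 and 26.6 in homeostasis. The largest rises of the list were those of Nuf2, a kinetochore subunit (2.08 ± 0.19), Ncapg, a condensin subunit (2.06 ± 0.22), and Ccna2, the S and G2 phase cyclin (1.91 ± 0.18). The 4 members that did not pass were the anaphase activator Cdc20 (0.63), the separase Espl1 (0.52), the condensin subunit Ncaph (0.18) and the kinetochore subunit Spc24 (-0.10), although Cdc20 passed without homeostasis replicate 2 and Espl1 when values were scaled to totals.

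Of the 39 tested genes of DNA replication, 14 were higher and 1 was lower, with a median log2 fold change of 0.34. Rrm2, which makes deoxynucleotides, had 14.7, 19.8, 14.1 and 17.5 after AMI and 8.43, 7.78, 5.48 and 7.09 in homeostasis (1.10 ± 0.17, limma, adjusted p = 3.36e-04). Hells, a chromatin remodeler of replicating cells, rose by 1.22 ± 0.16, Tyms, the thymidylate synthase, by 1.05 ± 0.16, and Pcna, the sliding clamp of the replication fork, by 0.69 ± 0.18. The helicase subunits Mcm2 (11.4, 12.7, 15.3 and 11.8 after AMI and 17.9, 16.9, 12.3 and 7.33 in homeostasis) and Mcm5 (6.86, 8.47, 7.18 and 8.44 after AMI and 13.2, 14.4, 10.1 and 7.09 in homeostasis) did not pass, and their values overlapped between the groups, although Mcm5 was lower without homeostasis replicate 4. Dnmt1, the maintenance DNA methyltransferase, was the member that fell, by 0.41 on the log2 scale, a call lost with equal column totals (adjusted p = 0.133). The difference between the 2 lists was not tested.

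**Figure D3:**
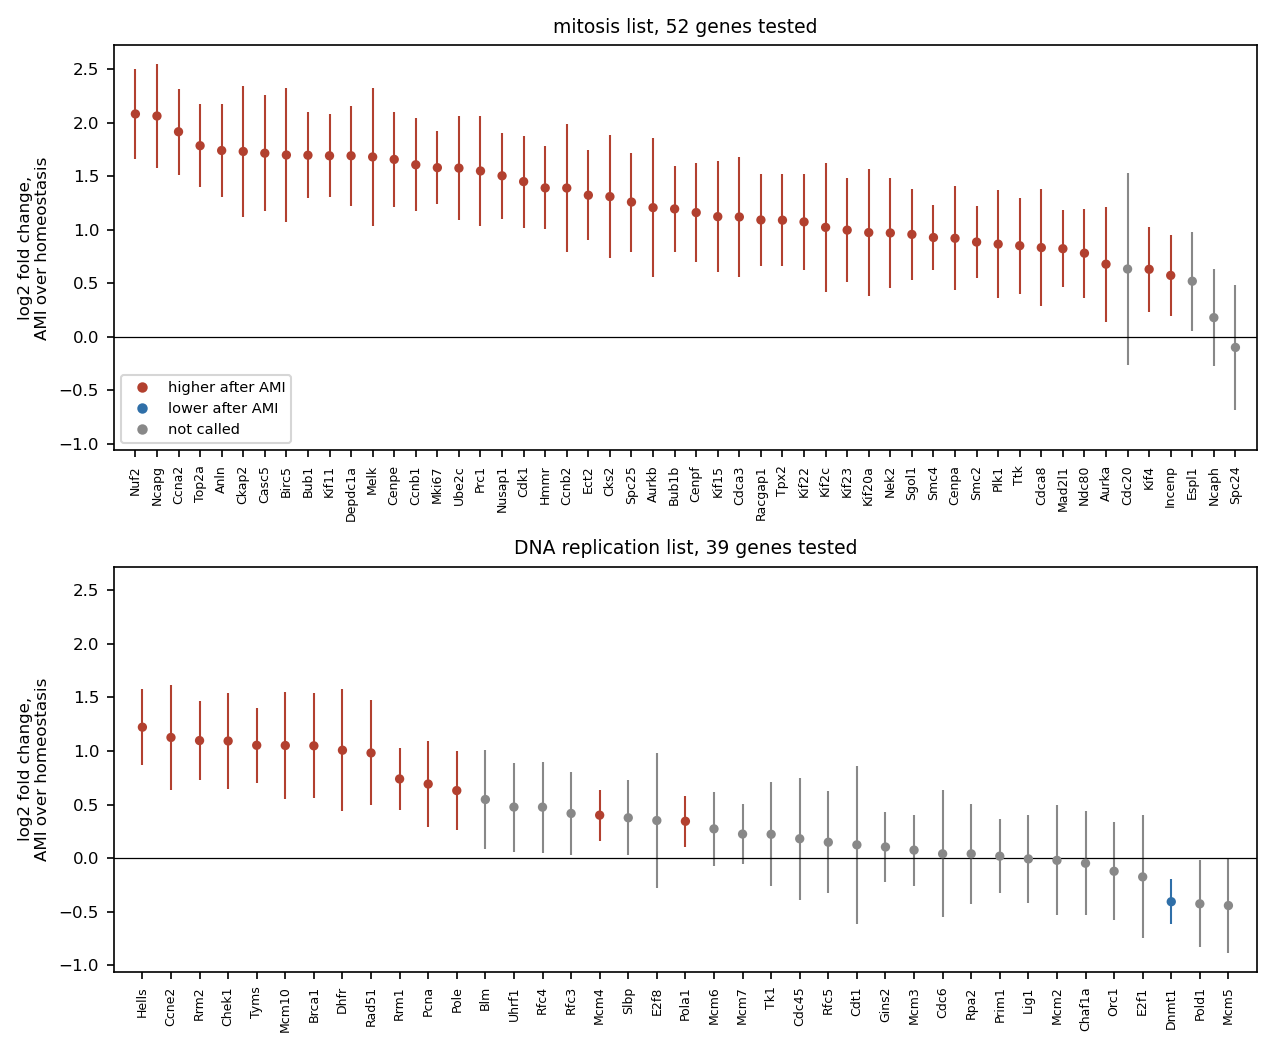
Log2 fold change, AMI over homeostasis, of each tested gene of the mitosis list (top, 52 genes) and of the DNA replication list (bottom, 39 genes), sorted by size, with lines for the 95% confidence interval from limma. Red marks genes higher after AMI (48 and 14), blue a gene lower (0 and 1) and grey genes that did not pass.

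Promoters of mitosis genes are known to carry CCAAT boxes, bound by the factor NF-Y, and cell cycle homology regions of the form TTTGAA or TTTAAA, bound by the DREAM complex in resting cells. Because the mitosis genes moved together, the 250 bases before the start of 4 of them are shown, 5′ to 3′ on the gene's strand, from RefSeq on GRCm38.p6. Capitals mark matches, on either strand, to CCAAT, to the homology forms TTTGAA or TTTAAA, and to a pair of E2F motifs, TTCCCGC or TTGGCGC. The last of these, read on the other strand, can share bases with CCAAT. Ccnb1 and Cdk1 are the pair that starts mitosis, Ccnb2 is a further B-type cyclin, and Birc5 (survivin) belongs to the chromosomal passenger complex.
Ccnb1: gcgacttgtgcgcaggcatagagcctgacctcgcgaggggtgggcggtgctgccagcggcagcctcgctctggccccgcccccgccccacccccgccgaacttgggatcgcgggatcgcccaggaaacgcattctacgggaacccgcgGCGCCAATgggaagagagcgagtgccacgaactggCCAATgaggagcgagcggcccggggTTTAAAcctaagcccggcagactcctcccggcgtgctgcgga
Cdk1: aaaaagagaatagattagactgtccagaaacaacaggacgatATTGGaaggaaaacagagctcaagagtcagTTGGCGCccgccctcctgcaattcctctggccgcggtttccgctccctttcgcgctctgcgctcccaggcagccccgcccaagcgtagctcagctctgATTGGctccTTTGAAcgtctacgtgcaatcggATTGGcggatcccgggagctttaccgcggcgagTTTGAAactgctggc
Ccnb2: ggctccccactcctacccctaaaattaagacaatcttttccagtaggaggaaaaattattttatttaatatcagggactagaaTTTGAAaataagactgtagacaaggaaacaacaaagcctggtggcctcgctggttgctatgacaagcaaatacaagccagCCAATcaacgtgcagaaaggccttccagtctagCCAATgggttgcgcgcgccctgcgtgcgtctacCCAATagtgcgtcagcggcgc
Birc5: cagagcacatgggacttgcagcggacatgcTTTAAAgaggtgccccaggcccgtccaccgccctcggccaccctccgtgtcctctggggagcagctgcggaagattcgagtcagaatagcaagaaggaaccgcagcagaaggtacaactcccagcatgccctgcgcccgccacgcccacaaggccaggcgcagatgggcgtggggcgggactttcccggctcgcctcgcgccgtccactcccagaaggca

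The windows were Ccnb1 at chr13:100786487-100786736 (minus strand), Cdk1 at chr10:69352913-69353162 (minus strand), Ccnb2 at chr9:70421555-70421804 (minus strand) and Birc5 at chr11:117848987-117849236 (plus strand). Promoters, each from 250 bases before to 50 after the start (300 bases), matched 46 of the 56 genes of the mitosis list by symbol. CCAAT stood in 36 of the 46 (78.3%), beside 10248 of all 27025 promoters (37.9%). TTTGAA stood in 33 (71.7%, beside 18.1%), TTTAAA, which is its own reverse complement, in 9 (19.6%, beside 13.2%), TTCCCGC in 2 (4.35%, beside 4.66%) and TTGGCGC in 6 (beside 2.54%). CCAAT together with TTTGAA or TTTAAA stood in 31 of the 46 (67.4%), beside 10.9% of all promoters. In Ccnb2, the 3 CCAAT matches began 87, 54 and 21 bases before the start. These matches describe letters in a window and no binding was measured. Ccnb2 itself had normalized read counts of 12.6, 24.4, 10.0 and 11.3 after AMI and 4.29, 7.36, 3.53 and 3.96 in homeostasis (1.39 ± 0.27, limma, adjusted p = 0.00168). Birc5, with 6.10, 7.35, 6.54 and 5.32 after AMI and 0.444, 1.39, 0.853 and 3.00 in homeostasis, rose by 1.70 ± 0.29 (adjusted p = 6.06e-04).

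Inhibitors of the cell cycle did not move in a single direction. Of 18 tested inhibitors and p53 target genes, 8 were higher and 3 lower (1 lower with values scaled to totals), with a median of 0.27. Cdkn1c, the imprinted inhibitor p57, had 32.3, 20.4, 28.4 and 32.6 after AMI and 74.4, 56.0, 66.6 and 58.5 in homeostasis (-1.16 ± 0.15, limma, adjusted p = 1.25e-04). Cdkn1a, which encodes p21, had 128, 130, 124 and 102 after AMI and 73.8, 174, 145 and 157 in homeostasis, where replicate 1 was low, and did not pass (adjusted p = 0.694). Without homeostasis replicate 1 it was lower after AMI (-0.39, adjusted p = 0.0137). The p53 target genes Pmaip1, which promotes apoptosis (1.50 ± 0.24), Zmat3 (0.83 ± 0.12) and Ccng1 (0.76 ± 0.10) rose, while the Trp53 transcript fell by 0.45 on the log2 scale, which did not pass with equal column totals (adjusted p = 0.118 there). Cdkn2b, an inhibitor held silent by Polycomb in other cells, had 1.88, 3.15, 3.17 and 2.77 after AMI and 0.148, 0.746, 0.609 and 1.32 in homeostasis (1.16 ± 0.26, adjusted p = 0.00337).

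Nearly all genes of activated fibroblasts rose. Of the 39 tested members, 36 were higher and 0 lower after AMI, with a median log2 fold change of 1.93, and the summed level was 19820, 27797, 22642 and 14170 after AMI against 5858, 5592, 4938 and 5098 in homeostasis. Postn (ENSMUSG00000027750), which organizes collagen in healing tissue, had 5381, 7551, 6919 and 3726 after AMI against 317, 188, 178 and 202 in homeostasis, a ratio of means of 26.6 (log2 fold change 4.72 ± 0.23, limma, adjusted p = 2.18e-07). Tnc had 373, 628, 689 and 327 after AMI and 18.2, 18.7, 16.2 and 14.5 in homeostasis. AMI replicate 4 was the lowest AMI pool for both genes and for the sum, and no AMI pool came near a homeostasis pool.

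Cthrc1 was close to absent in homeostasis, with 1, 7, 5 and 3 reads per library, and had 840, 1355, 998 and 564 reads after AMI. As normalized read counts these were 127, 190, 129 and 80.1 after AMI and 0.444, 1.60, 1.34 and 0.841 in homeostasis (5.98 ± 0.25, limma, adjusted p = 1.21e-07). Lox had 776, 1123, 611 and 429 after AMI against 20.6, 15.5, 12.3 and 22.7 in homeostasis, a ratio of means of 41.4. Runx1, a transcription factor of blood and of injured muscle, had 84.8, 138, 106 and 72.7 after AMI against 6.07, 5.22, 4.75 and 5.65 in homeostasis (3.94 ± 0.18, adjusted p = 1.21e-07). Fn1 (fibronectin, 3.12 ± 0.19) and Spp1 (osteopontin, 4.38 ± 0.27) rose as well, and macrophages also express both.

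Members of the list that myofibroblasts use for contraction differed among themselves. Acta2, alpha smooth muscle actin, had 205, 249, 156 and 132 after AMI and 65.5, 85.4, 104 and 54.2 in homeostasis (1.25 ± 0.22, limma, adjusted p = 7.27e-04). Fap, a surface protease of activated fibroblasts, rose by 1.03 ± 0.14. The 3 members that did not pass were the tropomyosin Tpm1 (-0.21), the myosin light chain Myl9 (0.26) and the mechanically induced Cyr61 (0.09), whose samples overlapped between the groups.

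Collagens and the machinery that secretes them followed. Of 38 tested collagen chains and processing enzymes, 27 were higher and 2 lower, with a median of 0.81. Col3a1, the chain of type III collagen laid down early in scars, had 6906, 7357, 7017 and 4930 after AMI against 841, 628, 572 and 784 in homeostasis, a ratio of means of 9.28 (log2 fold change 3.21 ± 0.17, limma, adjusted p = 2.70e-07). Col1a1 and Col1a2, the type I chains, rose by 2.92 ± 0.20 and 2.59 ± 0.19, and Col5a1, which sets fibril width, by 1.90 ± 0.22. Col11a1 had 47.7, 108, 40.1 and 28.4 after AMI and 2.81, 1.17, 0.609 and 0.841 in homeostasis, and Col24a1 had 19.8, 14.6, 17.3 and 14.7 after AMI and 0.740, 0.746, 0.853 and 1.56 in homeostasis. The lysyl hydroxylases moved in opposite directions: Plod2 had 212, 346, 236 and 174 after AMI and 98.1, 72.8, 73.0 and 79.9 in homeostasis, and Plod1 had 102, 116, 110 and 122 after AMI and 166, 197, 181 and 184 in homeostasis, without overlap in either. P4ha2, a prolyl hydroxylase, was lower by a small margin (-0.36 ± 0.13, adjusted p = 0.0454), a call that was lost with most of the settings tried.

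In the endoplasmic reticulum, where secreted proteins fold, 19 of 26 tested genes of the secretory pathway and of ER stress were higher and 1 was lower, with a median of 0.60. Without AMI replicate 1 the higher genes were 15. Sec23a, a coat subunit of the vesicles that carry procollagen, had 93.4, 102, 88.6 and 75.1 after AMI and 29.1, 31.4, 33.3 and 42.6 in homeostasis (1.38 ± 0.13, limma, adjusted p = 1.61e-05). Kdelr3, which retrieves escaped chaperones, rose by 1.61 ± 0.22, the disulfide isomerase Pdia4 by 0.89 ± 0.11 and the chaperone Hspa5 by 0.72 ± 0.16. Ddit3, the stress factor CHOP, did not pass (0.60 ± 0.25, adjusted p = 0.0731) and its samples overlapped between the groups, but it was higher when values were scaled to totals, with DESeq2 and without AMI replicate 4. Herpud1, which helps to degrade misfolded proteins, was lower (-0.41 ± 0.14, adjusted p = 0.0301), a call lost when values were scaled to totals and without AMI replicate 3, homeostasis replicate 1 or homeostasis replicate 2.

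Of 26 tested matrix proteases and inhibitors, 16 were higher and 4 lower, with a median of 0.65, and the inhibitors split. The higher genes were 13 without AMI replicate 3 and without homeostasis replicate 4. Timp1 had 76.9, 109, 124 and 68.0 after AMI against 8.73, 4.16, 3.29 and 4.68 in homeostasis (3.97 ± 0.25, limma, adjusted p = 1.06e-06). Timp4 had 15.9, 20.9, 12.1 and 30.1 after AMI and 161, 130, 91.0 and 107 in homeostasis (-2.61 ± 0.24, adjusted p = 1.26e-05). Timp3 also fell (-0.95 ± 0.18), although its last exons overlap the gene Syn3 and the libraries did not keep the strand. Thus neither the Timp1 pools nor the Timp4 pools overlapped between the groups. Mmp14, the membrane-bound collagenase that activates Mmp2, rose by 2.19 ± 0.21, Mmp2 by 0.76 ± 0.15 and Ctss, a protease of macrophage lysosomes, by 3.37 ± 0.25, while Mmp17 fell by 1.09 on the log2 scale.

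Of 21 tested genes of resting cardiac stroma, 4 were higher and 8 lower, with a median of -0.34, beside 21.4% and 22.0% of all tested genes. Pdgfra, the receptor that marks cardiac fibroblasts, had 342, 234, 282 and 224 after AMI and 282, 283, 229 and 254 in homeostasis (0.03 ± 0.13, limma, adjusted p = 0.879). The other resting-stroma genes went both ways: Dpep1, a membrane dipeptidase, had 120, 64.6, 84.6 and 66.8 after AMI and 297, 188, 139 and 216 in homeostasis (-1.30 ± 0.23), whereas the proteoglycans Lum (1.31 ± 0.22) and Dpt (1.12 ± 0.24), which bind collagen fibrils, rose. Tcf21, a transcription factor of the fibroblast lineage, was lower with overlapping samples (-0.63 ± 0.22, adjusted p = 0.0344). Its call was lost without any 1 of 6 of the libraries, with adjusted p up to 0.101. The list sum was 8311, 6171, 8260 and 6287 after AMI against 8631, 6824, 4663 and 6563 in homeostasis, and overlapped. Because whole pools were sequenced, fewer cells of a type and less RNA per cell cannot be told apart, here and in the cell type lists that follow.

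Leukocyte genes were higher in all AMI pools. Of 10 tested leukocyte genes, 9 were higher and 0 lower (median 1.97), and of 15 macrophage genes 14 were higher and 0 lower (median 1.92). Ptprc, which encodes CD45, had 149, 87.4, 64.0 and 72.9 after AMI against 16.1, 16.3, 14.7 and 22.5 in homeostasis (2.30 ± 0.23, limma, adjusted p = 1.86e-05). Summed macrophage genes were 1715, 1364, 1131 and 931 after AMI against 326, 185, 224 and 295 in homeostasis. AMI replicate 1 was the highest for leukocyte, macrophage, B cell and MHC class II sums alike, and in each of them every AMI pool was above every homeostasis pool. These sums moved in the same direction as the mitosis, matrix and cytokine genes, and their part in those rises was not tested.

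Within the macrophage genes, the macrophage adhesion receptor Emr1 (F4/80) had 58.6, 48.5, 39.2 and 31.0 after AMI against 6.66, 4.58, 5.97 and 8.77 in homeostasis (2.59 ± 0.21, limma, adjusted p = 6.07e-06). The lysosomal glycoprotein Cd68 rose by 2.47 ± 0.23, lysozyme Lyz2, whose reads may be shared with its near-identical copy Lyz1, by 2.79 ± 0.26, and the growth factor receptor Csf1r by 1.14 ± 0.15. Genes of recruited monocytes and of resident macrophages were listed apart. Of the recruited genes 8 of 9 rose (median 2.81), with Fn1, Thbs1 and Spp1 of that list also expressed by fibroblasts. Of 7 resident genes 2 rose (28.6%) and 1 fell (14.3%), with a median of 0.14. These shares were near the 21.4% and 22.0% of all tested genes, and the difference between the lists was not tested. Ccr2, the receptor that brings monocytes into injured tissue, had 33.1, 17.99, 23.4 and 18.9 after AMI against 1.63, 3.52, 2.31 and 2.28 in homeostasis (2.81 ± 0.22, adjusted p = 4.92e-06). Lyve1, of resident macrophages and lymphatics, had 26.9, 15.9, 16.8 and 25.3 after AMI and 37.7, 23.4, 27.2 and 25.8 in homeostasis and did not pass (adjusted p = 0.0990). Of 12 neutrophil genes 2 were tested and 0 passed, and of 12 T and NK cell genes 2 were tested and 1 rose. The others of those lists, with the defining S100a8, S100a9, Cd3e and Nkg7, were not analysed here, so these cell types could not be judged.

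B cell genes and immunoglobulin chains rose, with a wide spread between the AMI pools. All 5 tested B cell genes rose (median 1.36), and 7 of 8 genes of MHC class II presentation rose with 0 lower (median 1.21). The class II count was 5 without AMI replicate 1, 2 or 3, and without homeostasis replicate 1 or 2. Ms4a1, which encodes CD20, had 37.8, 25.8, 11.7 and 9.72 after AMI and 2.81, 1.39, 0.853 and 6.37 in homeostasis (2.54 ± 0.46, limma, adjusted p = 0.00101). Ighm, the heavy chain of IgM, had 2995, 3370, 538 and 1826 after AMI against 200, 16.9, 61.0 and 158 in homeostasis, and Igj, the joining chain of secreted IgM, had 228, 258, 47.7 and 144 after AMI against 9.02, 0.107, 3.53 and 5.17 in homeostasis. AMI replicate 3 was the lowest AMI pool for both immunoglobulin genes, while replicate 4 was the lowest for Ms4a1. Cd74, the chaperone of MHC class II, had 361, 299, 233 and 206 after AMI and 87.7, 105, 106 and 144 in homeostasis. H2-Aa, an MHC class II chain, rose by 1.59 ± 0.19.

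**Figure D4:**
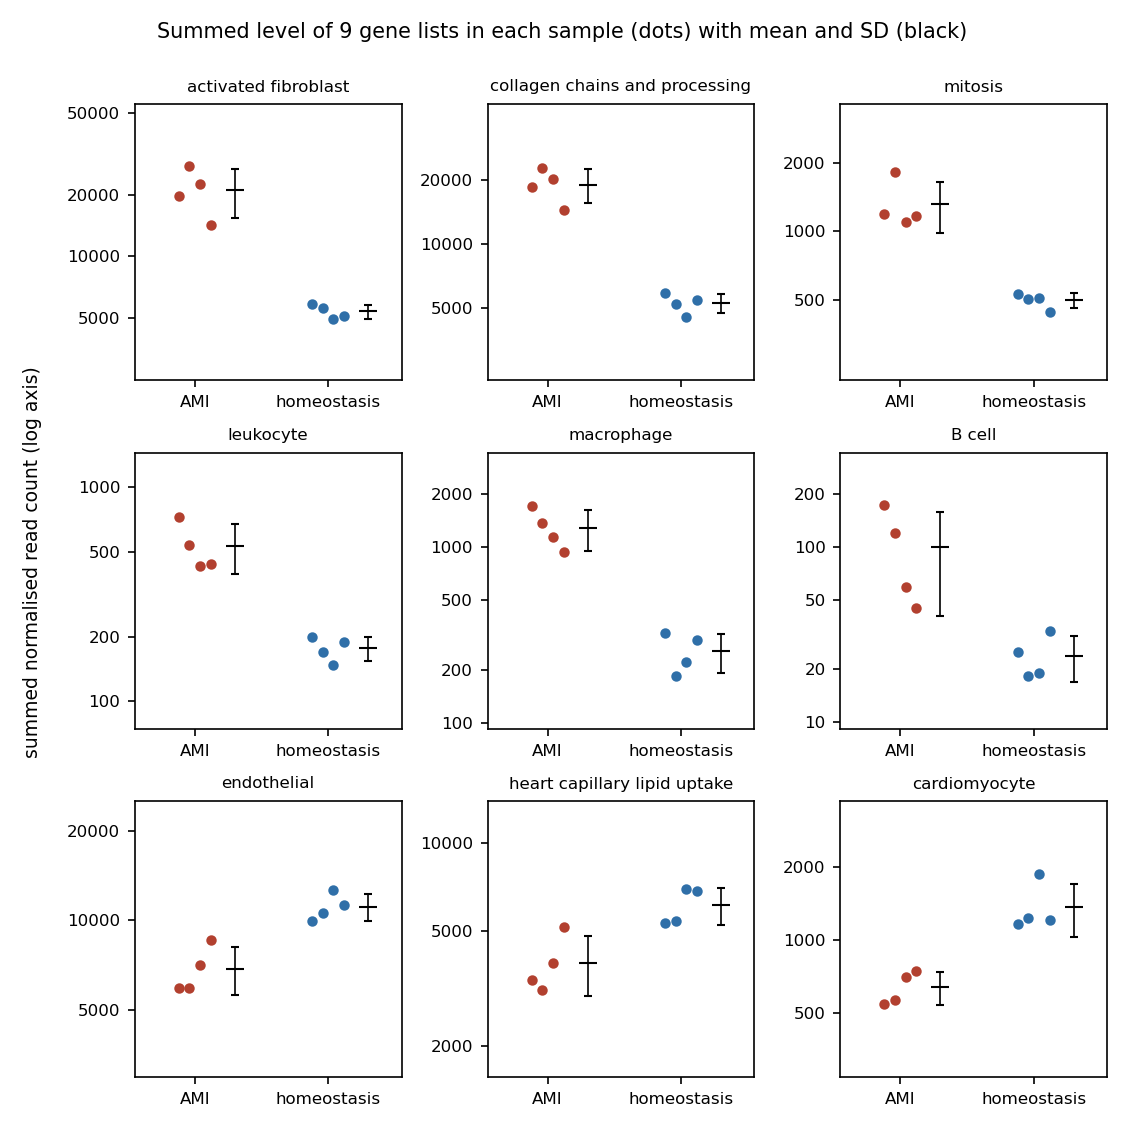
Summed normalized read count of the tested members of 9 gene lists in each sample, on log axes that differ between panels, with AMI (red) left of homeostasis (blue) and the mean and SD of the 4 samples in black. The first 6 lists are higher in every AMI pool than in any homeostasis pool, and the endothelial, capillary and cardiomyocyte lists are lower in every AMI pool.

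Chemokines that draw neutrophils and monocytes rose by large factors. Of 19 tested chemokines, 12 were higher and 2 lower, with a median of 1.46. Cxcl2 had 119, 121, 113 and 109 after AMI against 7.54, 7.57, 4.75 and 9.97 in homeostasis (3.82 ± 0.17, limma, adjusted p = 1.21e-07). Cxcl5 rose by 4.02 ± 0.21 and Cxcl1 by 2.85 ± 0.27, both of which, like Cxcl2, act on neutrophils, and the monocyte attractants Ccl2 and Ccl7 rose by 2.38 ± 0.12 and 2.37 ± 0.18. Ccl2 was even across AMI pools, with 55.2, 57.6, 62.6 and 56.4 after AMI and 11.7, 8.85, 9.62 and 11.2 in homeostasis, while the leukocyte sums of the same AMI pools were 727, 537, 428 and 439, and the part of leukocytes in it was not tested. Cxcl12, which retains stem cells and lymphocytes and was the most abundant of those named, had 644, 681, 989 and 1193 after AMI and 1061, 1248, 1408 and 1310 in homeostasis. Its fall was small (-0.56 ± 0.19, adjusted p = 0.0294), the groups overlapped, and the call was lost with equal column totals (adjusted p = 0.116) and without any 1 of 5 libraries. Cxcl9, an interferon-induced chemokine for T cells, was also lower (-0.74 ± 0.23, adjusted p = 0.0192). Without AMI replicate 2 it did not pass, and 0 chemokines were lower.

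Among 30 tested cytokines and growth factors, 17 were higher and 6 lower, with a median of 0.71. Without AMI replicate 3 the counts were 14 and 5. Il6, an inflammatory cytokine made by stromal cells and macrophages, had 164, 177, 152 and 132 after AMI against 5.47, 11.8, 6.21 and 13.3 in homeostasis, a ratio of means of 17.0 (log2 fold change 4.02 ± 0.23, limma, adjusted p = 5.54e-07). Il1b, the macrophage cytokine that starts inflammation, had 98.8, 91.3, 88.6 and 81.8 after AMI against 11.4, 6.72, 5.48 and 6.61 in homeostasis. For both, the spread among AMI pools was small beside the gap to homeostasis. The Il6 family member Lif rose by 2.06 ± 0.28, the repair factor Hgf by 2.07 ± 0.21 and Tnf by 1.04 ± 0.20. The insulin-like factors went apart: Igf1 had 384, 357, 343 and 243 after AMI against 146, 108, 67.6 and 106 in homeostasis, while Igf2 had 42.4, 25.4, 38.6 and 45.8 after AMI against 83.0, 149, 109 and 89.0 in homeostasis, a locus where a readthrough transcript shares its bases. Bmp6 (-1.50 ± 0.11), Bmp4 (-1.12 ± 0.19) and Pdgfb, which endothelium uses to recruit pericytes (-1.10 ± 0.17), fell.

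Most interferon response genes did not pass. Of 25 tested, 1 was higher (4%) and 7 were lower (28%), beside 21.4% and 22.0% of all tested genes. The median was -0.30, and without homeostasis replicate 1 the lower genes were 13. Irf7, the transcription factor that amplifies type I interferon, had 24.3, 17.4, 22.9 and 19.1 after AMI and 27.7, 65.2, 45.4 and 44.6 in homeostasis (-1.04 ± 0.21, limma, adjusted p = 0.00208). Stat2 and Gbp3 fell by 0.65 each on the log2 scale, while Isg15 did not pass (adjusted p = 0.613). Ifit1 had 92.8, 62.2, 98.2 and 88.5 after AMI and 99.3, 327, 121 and 101 in homeostasis, with replicate 2 far above the rest, and did not pass (adjusted p = 0.0781), although it was lower without homeostasis replicate 1 (adjusted p = 0.0441) and with edgeR. The member that rose was Mx1, a low gene with 11.2, 5.67, 6.80 and 4.89 after AMI and 1.04, 4.37, 3.05 and 2.04 in homeostasis.

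Endothelial genes were lower after AMI. Of 22 tested, 1 was higher and 15 were lower, with a median of -0.61, and the summed level was 5931, 5916, 7101 and 8564 after AMI against 9947, 10605, 12639 and 11271 in homeostasis. The lower genes were 12 with equal column totals, 11 with edgeR on library totals and 19 with the replicate number as a block. Pan-endothelial genes fell by modest amounts: Cdh5, the junctional cadherin, had 972, 1095, 1188 and 1431 after AMI and 1579, 1782, 1949 and 1813 in homeostasis (-0.61 ± 0.14, limma, adjusted p = 0.00332), and Pecam1 fell by 0.52 on the log2 scale with overlapping samples. With edgeR on library totals, both calls were lost (adjusted p = 0.0530 for Cdh5 and 0.0897 for Pecam1). Tie1, the receptor partner of Tek in vessel stability, had 82.4, 82.5, 88.5 and 106 after AMI against 249, 232, 228 and 213 in homeostasis (-1.36 ± 0.10, adjusted p = 3.10e-06), without overlap. Eng (-1.05 ± 0.15) and the endothelial transcription factor Erg (-0.92 ± 0.10) fell, while the growth factor receptor Kdr did not pass (-0.52 ± 0.24, adjusted p = 0.102), although it was lower without AMI replicate 4 and without homeostasis replicate 1. The single member that rose was Plvap, which forms the diaphragms of leaky vessels, with 17.4, 14.2, 13.1 and 18.2 after AMI against 2.52, 2.45, 3.29 and 2.04 in homeostasis (2.23 ± 0.18, adjusted p = 4.92e-06).

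Genes of heart capillaries fell in 9 of 10 cases, with a median of -1.01. The list holds genes of lipid uptake and also other capillary genes, such as Aqp1 and Car4, so its count is not one of lipid genes alone. The water channel Aqp1 had 195, 142, 169 and 240 after AMI against 637, 685, 601 and 607 in homeostasis (-1.78 ± 0.14, limma, adjusted p = 4.30e-06), and the surface carbonic anhydrase Car4 fell by 1.60 on the log2 scale. Lpl, the lipase that frees fatty acids at the vessel wall, had 270, 233, 280 and 349 after AMI against 850, 850, 629 and 772 in homeostasis, and its anchor Gpihbp1 fell by 1.08 on the log2 scale. All of these were without overlap between the groups, beside 20.6% of all tested genes that were lower without overlap. Cd36, the fatty acid transporter, was the member that did not pass, with 2183, 2025, 2606 and 3449 after AMI and 2185, 2436, 4486 and 4029 in homeostasis (-0.32 ± 0.25, adjusted p = 0.325). Among 7 lymphatic genes, Pdpn rose by 1.99 ± 0.16, a gene that activated fibroblasts and macrophages also express, and Flt4 fell by 0.81 on the log2 scale.

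In the Notch pathway, ligands on 1 cell activate receptors on its neighbour. Of 24 tested pathway genes, 4 were higher and 10 lower (8 lower with values scaled to totals), with a median of -0.29. The ligand Jag2 had 11.2, 11.8, 15.1 and 17.0 after AMI against 42.5, 50.2, 43.5 and 47.2 in homeostasis (-1.68 ± 0.14, limma, adjusted p = 6.73e-06), and the ligand Dll4 had 25.6, 33.0, 38.0 and 50.2 after AMI against 80.6, 133, 85.7 and 86.4 in homeostasis. The receptors Notch1 (-1.24 ± 0.12) and Notch4 (-1.27 ± 0.14) and the target gene Hey1 (-0.87 ± 0.11) fell too, each without overlap. The ligand Jag1 did not pass (-0.13 ± 0.11, adjusted p = 0.353). The DNA-binding factor Rbpj (0.59 ± 0.09), the receptor Notch2 (0.44 ± 0.13) and the target Hes1 (0.68 ± 0.16) rose, of which Notch2 lost its call without AMI replicate 1 or without AMI replicate 2. The endothelial sums given above moved with these falls, and their part in them was not tested.

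Of 14 tested genes of pericytes and smooth muscle, 2 were higher (14.3%) and 6 lower (42.9%), with a median of -0.37. The shares of all tested genes were 21.4% and 22.0%. The higher members, Acta2 and Tagln, are also on the activated fibroblast list. Pdgfrb, the pericyte receptor, had 115, 145, 130 and 110 after AMI and 109, 134, 129 and 105 in homeostasis (0.07 ± 0.12, limma, adjusted p = 0.664). Rgs5, the most abundant pericyte marker of the list, did not pass either (adjusted p = 0.759). Kcnj8, the potassium channel of heart pericytes, had 17.0, 17.4, 25.7 and 23.2 after AMI and 62.6, 56.6, 56.4 and 43.6 in homeostasis (-1.36 ± 0.16, adjusted p = 5.04e-05).

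Cardiomyocyte transcripts fell in 13 of 14 tested cases, with a median of -1.29, and summed to 541, 563, 704 and 741 after AMI against 1157, 1224, 1865 and 1206 in homeostasis. Tnnt2, cardiac troponin T, had 42.6, 49.6, 52.1 and 47.2 after AMI against 171, 108, 156 and 119 in homeostasis (-1.49 ± 0.14, limma, adjusted p = 1.51e-05). Myh6, the adult myosin heavy chain, had 35.3, 22.5, 45.9 and 48.3 after AMI and 88.9, 102, 197 and 99.6 in homeostasis, with homeostasis replicate 3 the highest. Both genes were without overlap. Tnni3 fell by 1.77, Actc1 by 1.03 and the natriuretic peptide precursor Nppa by 1.83 on the log2 scale, while the calcium pump Atp2a2, which other cells also express, did not pass (-0.31 ± 0.15, adjusted p = 0.127). Without homeostasis replicate 1 it was lower too (-0.48, adjusted p = 0.00253), so that all 14 fell. The gate of the sort was YFP, and the source of these transcripts within the pools was not tested.

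The study's own list of 35 contractility and calcium genes was chosen on these samples, so its count is not independent evidence: all 35 passed, 17 higher and 18 lower, with a median of -0.57. The members that fell hold muscle genes such as Myh6 and Tnnt2, but also Pnpla2, the lipase that opens triglyceride stores, with 20.1, 15.9, 15.7 and 24.6 after AMI against 66.4, 89.2, 48.4 and 56.8 in homeostasis (-1.71 ± 0.19, limma, adjusted p = 4.14e-05), and Jup, plakoglobin of cell junctions (-1.51 ± 0.11). Those that rose hold Il6, Tnf and Igf1, which are known as secreted signals. Srl, Mb and Pln are muscle genes that fell as well.

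Genes known from pluripotent and adult stem cells were mostly lower, with 15 of 23 tested members lower and 5 higher (median -0.66). With equal column totals 13 were lower, and with edgeR on library totals 12. Pou5f1 (Oct4, ENSMUSG00000024406), the central factor of pluripotent cells, was read 3, 8, 0 and 5 times after AMI and 21, 35, 41 and 52 times in homeostasis, although the AMI libraries were deeper (-2.64 ± 0.27, limma, adjusted p = 2.35e-05). Dppa5a, an early embryo RNA-binding gene with several near-identical copies, had 0 reads in each AMI library and 14, 21, 16 and 21 in homeostasis. Against a floor of 3 reads per library it was at least 10.7-fold lower after AMI. These are low counts. The SE of Pou5f1 is from limma and rests on the spread between pools, whereas the floor used for Dppa5a covers counting error only. Nanog, Sox2 and Lin28a were not analysed here.

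The adult stem cell markers of the list moved little or both ways. Prom1 (CD133) had 3.54, 3.29, 2.91 and 5.04 after AMI and 5.77, 8.21, 6.94 and 6.61 in homeostasis (-0.76 ± 0.19, limma, adjusted p = 0.00744). Ly6a (Sca-1) had 468, 473, 639 and 726 after AMI and 790, 810, 836 and 801 in homeostasis (-0.51 ± 0.14, adjusted p = 0.0111), a call lost with edgeR on library totals (adjusted p = 0.128), and Kit passed as lower only without homeostasis replicate 4 (-0.34 ± 0.13, adjusted p = 0.0598 with all samples). Gata2, which is also an endothelial factor, fell by 1.84 and Tcf7l1, a repressor in Wnt signaling, by 1.18 on the log2 scale. Myc had 89.3, 89.1, 77.5 and 58.8 after AMI and 28.9, 39.3, 21.3 and 38.1 in homeostasis (1.30 ± 0.19, adjusted p = 2.53e-04), and Sox9 (1.29 ± 0.24), Cd44 (1.49 ± 0.10) and the integrin Itga4 (1.91 ± 0.19), which fibroblasts and leukocytes also express, rose.

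Among Polycomb genes, 5 of 23 tested rose and 7 fell (median -0.24), beside 21.4% and 22.0% of all tested genes. Of Polycomb repressive complex 2, which methylates histone H3, Suz12 had 85.4, 77.6, 80.8 and 77.7 after AMI and 67.6, 62.2, 57.9 and 53.7 in homeostasis (0.41 ± 0.10, limma, adjusted p = 0.00451), Ezh2, its enzyme in dividing cells, had 24.8, 30.9, 23.2 and 23.9 after AMI and 10.2, 13.1, 18.1 and 15.5 in homeostasis, and Eed rose by 0.62 ± 0.12. Ezh1, the enzyme of resting cells, had 60.8, 46.4, 54.2 and 61.9 after AMI and 102, 125, 105 and 105 in homeostasis (-0.96 ± 0.11, adjusted p = 6.00e-05). Neither enzyme overlapped between the groups. Cbx7, the chromodomain subunit that tethers complex 1 to methylated histone, had 9.87, 6.65, 9.90 and 13.1 after AMI and 30.3, 29.5, 26.9 and 29.2 in homeostasis (-1.49 ± 0.17).

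Transcription factors of heart development changed in 6 of 14 tested cases, 4 higher and 2 lower (median -0.01). The shares were 28.6% and 14.3%, beside 21.4% and 22.0% of all tested genes. In either direction, 43.4% of all tested genes passed, so the list did not stand out by its count. Gata4 and Mef2c did not pass (-0.12 ± 0.14 and 0.04 ± 0.11, limma, adjusted p = 0.505 and 0.767), nor did Tbx5, which was near the limit of detection (3.24, 1.19, 2.52 and 1.77 after AMI and 7.54, 1.17, 4.02 and 3.48 in homeostasis) and was lower without homeostasis replicate 2. Gata6 had 32.8, 31.7, 30.6 and 25.9 after AMI and 14.7, 14.8, 14.7 and 16.0 in homeostasis (0.96 ± 0.12, adjusted p = 7.18e-05). Prrx1, a factor of mesenchyme, rose by 1.13 ± 0.12, and Mef2d fell by 1.05 on the log2 scale. Nkx2-5 and Isl1 were not analysed here.

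Genes of energy metabolism moved in both directions. Of 19 glycolysis genes 6 were higher and 5 lower (median 0.07), of 27 nuclear respiratory chain genes 4 were higher and 4 lower (median 0.11), and of 20 ribosome biogenesis genes 3 were higher and 0 lower (median 0.10), beside 21.4% and 22.0% of all tested genes. With values scaled to totals, 3 glycolysis genes and 1 respiratory chain gene were lower, and 2 respiratory chain genes were higher without AMI replicate 1 or without AMI replicate 4. Hk2, the inducible hexokinase at the entry of glycolysis, had 34.9, 52.6, 36.3 and 27.3 after AMI against 6.36, 8.64, 6.94 and 8.77 in homeostasis (2.13 ± 0.19, limma, adjusted p = 9.41e-06), and Pgam1 rose by 1.07 ± 0.11, whereas lactate dehydrogenase Ldha did not pass (0.07 ± 0.11). Of 23 genes of lipolysis and fatty acid oxidation 3 were higher and 7 lower (median -0.20; 4 lower with values scaled to totals), and all 3 lipases of the pathway fell: Pnpla2 as given above, Lipe with 29.6, 31.1, 33.5 and 41.2 after AMI against 102, 127, 92.5 and 83.7 in homeostasis (-1.55 ± 0.14), and Mgll with 116, 160, 185 and 246 after AMI against 347, 435, 481 and 453 in homeostasis (-1.31 ± 0.19). The Atp5b subunit of ATP synthase fell by 0.78 on the log2 scale.

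Clock genes were among the largest falls, and the homeostasis pools were themselves split. Of 17 tested clock genes 3 were higher and 8 lower, with a median of -0.88. The 3 higher became 1 without any 1 of the AMI libraries, without homeostasis replicate 1 or 2, and with edgeR in its default scaling. Per2 (ENSMUSG00000055866), the repressor that peaks in the evening in mouse tissues, had 7.76, 6.23, 5.63 and 10.7 after AMI against 138, 166, 61.3 and 71.0 in homeostasis (-3.59 ± 0.29, limma, adjusted p = 6.09e-06). The clock output genes Hlf (11.8, 7.77, 9.13 and 18.5 after AMI and 155, 167, 47.6 and 59.0 in homeostasis) and Dbp (3.24, 2.03, 1.88 and 7.45 after AMI and 87.7, 78.4, 7.19 and 9.73 in homeostasis) followed the same pattern, with homeostasis replicates 1 and 2 above replicates 3 and 4.

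Arntl (Bmal1), the activator whose rhythm runs opposite to Per2, had 37.1, 38.1, 40.2 and 27.2 after AMI and 2.81, 0.320, 27.7 and 27.8 in homeostasis. Its rise was at the limit of the test (2.18 ± 0.80, limma, adjusted p = 0.0436) and was lost with edgeR (adjusted p = 0.119 with its default scaling), with DESeq2 (0.357) and without 6 of the 8 libraries, each left out in turn. Nr1d1, a repressor of Arntl, had 26.4, 23.3, 39.0 and 78.5 after AMI and 198, 266, 29.6 and 39.8 in homeostasis and did not pass (adjusted p = 0.131), although it was lower without homeostasis replicate 3 and with edgeR. Set beside homeostasis replicates 3 and 4 alone, the AMI values of Nr1d1 and Arntl lay on both sides or close by. Dbp overlapped as well, with AMI replicate 4 above homeostasis replicate 3, whereas the AMI values of Per2, Per3 and Hlf stayed below. Per2, Per3 and Hlf were named by a rule that asked for no overlap, so their staying below was fixed in advance. The time of day of harvest is not given in the sources used here.

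**Figure D5:**
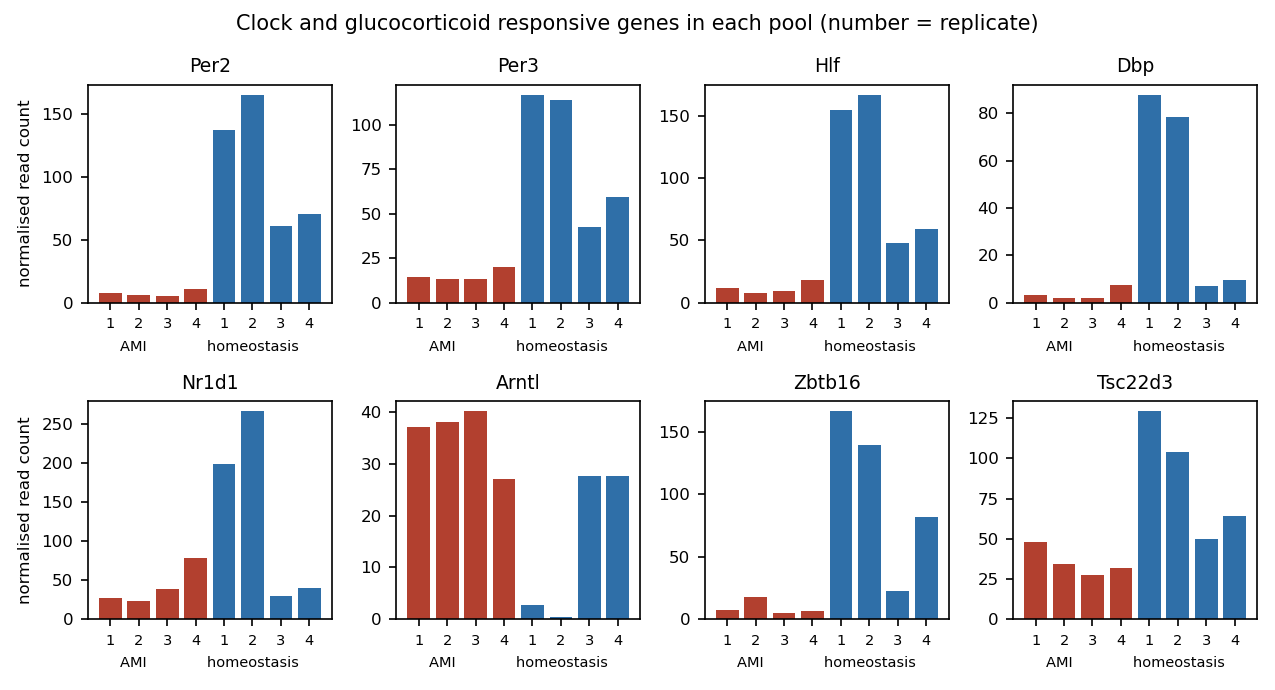
Normalized read count, on axes from 0, of 6 clock genes and 2 glucocorticoid responsive genes in each pool, with AMI replicates 1 to 4 (red) left of homeostasis replicates 1 to 4 (blue). Homeostasis replicates 1 and 2 stand apart from replicates 3 and 4 in the clock genes. Per2, Per3 and Hlf, named by a rule that asked for no overlap, are lower in every AMI pool than in any homeostasis pool.

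Glucocorticoid targets showed a related split. Of 12 tested, 1 was higher and 6 lower (median -0.41). Zbtb16, a strongly glucocorticoid-induced transcription factor, had 7.61, 17.3, 5.24 and 6.60 after AMI against 166, 140, 22.5 and 81.8 in homeostasis (-3.15 ± 0.52, limma, adjusted p = 5.44e-04), and Tsc22d3 (GILZ) had 48.0, 34.2, 27.4 and 31.6 after AMI and 129, 104, 49.8 and 64.3 in homeostasis (-1.21 ± 0.26). Homeostasis replicate 3 was the lowest homeostasis pool for both genes and still above every AMI pool. Fkbp5, a further target, overlapped and did not pass (-0.22 ± 0.34, adjusted p = 0.643).

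Immediate early genes, which digestion of tissue can induce, summed to 7259, 6978, 6953 and 6895 after AMI and to 6707, 14904, 7348 and 7871 in homeostasis, with replicate 2 apart. Of 18 tested, 2 were higher and 5 lower (median -0.40), beside 21.4% and 22.0% of all tested genes. Without homeostasis replicate 2 the counts were 4 and 6 (median -0.10), without replicate 4 the lower genes were 8, and with DESeq2 they were 9. Fos had 576, 611, 628 and 636 after AMI and 492, 1411, 692 and 708 in homeostasis and did not pass (-0.32 ± 0.24, limma, adjusted p = 0.312), nor did Egr1 (adjusted p = 0.428). Fosb, with 248, 334, 295 and 306 after AMI and 384, 1338, 456 and 597 in homeostasis, and Jun, with 383, 404, 409 and 427 after AMI and 675, 1039, 465 and 528 in homeostasis, were lower in every AMI pool.

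Depth differed between the groups in the same direction for every gene. With the AMI reads thinned to the mean depth of the homeostasis libraries, a setting chosen after the depth difference was seen, 2577 genes were higher and 2613 lower, and 2513 and 2539 of these were also called at full depth. The counts of the mitosis list (48 higher, 0 lower), the activated fibroblast list (36 and 0), the macrophage list (14 and 0), the capillary list (0 and 9) and the cardiomyocyte list (0 and 13) were the same with thinned reads. In 14 of the 39 lists a count moved, by at most 2 genes: cell cycle inhibitors and p53 target genes had 6 higher, leukocyte genes 8 higher and interferon genes 9 lower, and Lyve1 was then lower (adjusted p = 0.0444).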

How the data were processed

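RNA from sorted YFP+ cells was amplified with a kit that does not keep the strand and sequenced as single reads. The tools cutadapt, RSEM and edgeR are listed in the submitters' processing notes, which give the build NCBIM37 and no tool version. The deposited table holds 1 signal value per gene and sample, which the authors normalized: dividing a column by its own factor and subtracting 0.5 returns the reads. In this way 100% of the values came out whole within 1e-06 of a read (largest deviation 5.59e-09), and 3 reads were worth 0.388 to 0.452 after AMI and 0.640 to 0.888 in homeostasis. Columns with the authors' own fold changes and adjusted p-values were not used, nor was the second table, which holds the comparison with Sca-1+ cells.

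Samples were grouped by the labels, 4 in each group, and the pools of different mice were taken as replicates. Values were compared as log2(value + 1) with limma 3.58.1 in R 4.3.3 (trend, two-sided, threshold 0.05 after Benjamini-Hochberg adjustment over 12486 genes), checked on simulated data. Alternatives were other pseudocounts, filters and scalings, edgeR 4.0.16 and DESeq2 1.42.0 on the recovered reads, a replicate block, each library left out in turn and thinned reads. No table of raw counts was used, so that a log-scale test took the main place. Of the genes in the table, 28 had no symbol and 90 shared one. Promoters are from RefSeq (GRCm38.p6). Of 215 genes in the text, 19 share at least 20% of their transcript with another gene at 95% identity or more over stretches of at least 75 bases. These include Bmi1, Ccnb1, Cdkn1c, Dbp, Isg15, Ldha, Nppa, Pcna, Pgam1, Pou5f1, Rbpj and Trp53, whose values are uncertain to that extent.

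Members and gene lists were chosen with earlier results of these data known, so lists are described by counts and medians and not tested. Genes were named if they were among the 15 largest changes in either direction with a group mean of at least 10 and no overlap, set or label the sort or are named by the study for it, stand among the first 4 of a list, or were among the 4 called members of a list with the smallest adjusted p. Sex markers and mt-Rnr2 describe the samples. Further genes, among them the members of a list that went against the others, Cdkn2b, Plod1, Plod2, Cxcl12, Igf1, Igf2, Hgf, Timp3, Ccnb2, Ncapg, Myc, Sox9 and all new ones in the closing section, were chosen after their values were seen. Some items are not reported here. Limits of reads cover counting error only.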

Additional observations from a re-analysis of the deposited data

Results flagged for a closer look

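In 22 of the 512 groups of 4 samples examined (4.30%), the highest or lowest sample stood apart from the other 3 by more than Dixon's critical value allows, which chance gives in about 1 in 20 groups.

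Homeostasis replicate 2 accounts for 5 of them. Its summed immediate early genes reached 14904, against 6707 to 7871 in the other homeostasis pools, and its Ifit1, an interferon-induced gene, 327.4 against 99.3 to 121. The Notch ligand Dll4 reached 133.2 there (others 80.6 to 86.4), the histone methyltransferase Ezh1 125.1 (others 102 to 105) and Aldh1a2, which makes retinoic acid, 22.5 (others 16.2 to 16.7). Without this pool, 2493 genes were higher and 2468 lower after AMI.

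Homeostasis replicate 4 was highest for Bmi1 at 59.95 (others 43.4 to 46.2), for the collagen Col24a1 at 1.562 (others 0.740 to 0.853), for Gata6 at 15.98 (others 14.7 to 14.8) and for the leukocyte gene Laptm5 at 19.58 (others 17.6 to 17.7). It was also highest for Ptgs2, the inducible cyclooxygenase, at 55.14 (others 36.1 to 39.1) and for the sum of red blood cell and platelet genes at 96.95 (others 61.1 to 65.7). Homeostasis replicate 3 stood apart in Myh6 at 196.8 (others 88.9 to 102) and in the summed cardiomyocyte genes at 1865 (others 1157 to 1224). Homeostasis replicate 1 stood apart in the p53 target Zmat3 at 49.56 (others 42.5 to 43.0), in the 2 tested genes of the T and NK cell list at 40.83 (others 22.4 to 25.0) and in the summed lymphatic genes at 391 (others 250 to 271).

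Among the AMI pools, replicate 2 was highest for the cyclin Ccna2 at 66.57 (others 35.1 to 38.1) and for the summed mitosis genes at 1825 (others 1096 to 1188), and lowest for Saa3, an acute phase protein, at 3.29 (others 10.9 to 12.1). Replicate 4 was highest for the lipid carrier Fabp4 at 832.1 (others 529 to 573), replicate 1 for Rbpj at 132 (others 114 to 114.5), and replicate 3 was lowest for Herpud1 at 25.05 (others 30.6 to 31.3). In each case a single pool of mice carries the value, and the cause was not tested.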

How the results depend on the processing

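Under all but a pair of the 19 alternatives, 2093 to 2841 genes were higher and 2191 to 2842 lower, beside 2671 and 2750 as reported. The lowest of these came from a filter that left 8213 genes to test, with fewer members of most lists (28 mitosis genes higher, for example). The exceptions scaled to totals: 1777 genes were lower with equal column totals and 1792 with edgeR on library totals, settings that move the median of all genes by 0.10 on the log2 scale. Leaving out 1 library gave 2221 to 2779 genes higher and 2277 to 2842 lower. Of 215 genes in the text, 178 passed the test, and 165 of these passed under every alternative that gave a value. None turned its direction in a setting in which it was called. With the replicate number as a block (replicate block), 2590 genes were higher and 2623 lower, Kdr (adjusted p = 0.00822) and Lyve1 (0.0352) passed as lower and P4ha2 (0.0588) did not pass. The labels do not say whether the numbers pair the samples. Deviations of same-numbered samples correlated at 0.0754, -0.0103, -0.0089 and 0.0017, and the highest value among the other pairs was 0.1517. Such correlations over all genes cannot decide whether pools were handled together, so no conclusion on pairing is drawn. With 4 samples in a group, and pools of 2 to 3 mice after AMI against 6 in homeostasis, p-values measure the spread between pools. Genes near the value of 3 reads are limited by depth, more so in the shallower homeostasis libraries.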

Other observations

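Further groups of genes, chosen after their values were seen, changed after AMI. Mast cell proteases rose: the carboxypeptidase Cpa3 had normalized read counts of 54.6, 37.5, 40.2 and 54.1 after AMI against 6.95, 7.57, 2.56 and 9.01 in homeostasis (log2 fold change 2.74 ± 0.28, SE, limma, adjusted p = 2.31e-05). The chymase Cma1, which shares part of its transcript with a predicted gene, had 34.6, 21.5, 23.4 and 38.5 after AMI against 5.77, 3.73, 2.07 and 6.37 in homeostasis (2.51 ± 0.28, adjusted p = 3.94e-05). The chymase Mcpt4 (1.93 ± 0.22), the tryptases Tpsab1 (1.50 ± 0.21) and Tpsb2 (1.12 ± 0.22) and the IgE receptor chain Fcer1a (1.36 ± 0.28) rose as well. AMI replicates 1 and 4 were the highest AMI pools for Cpa3, Cma1 and Mcpt4, and the groups did not overlap in any of these 6 genes.

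Endothelial selectins, which let leukocytes roll on inflamed vessels, rose although most endothelial genes fell. Selp had 62.8, 55.4, 50.8 and 61.8 after AMI against 2.52, 7.14, 7.43 and 5.41 in homeostasis (3.22 ± 0.24, limma, adjusted p = 3.10e-06), a gene that platelets also express. Sele had 120, 125, 111 and 124 after AMI against 18.8, 28.7, 22.3 and 12.9 in homeostasis (2.53 ± 0.19, adjusted p = 2.97e-06). Both were even across the AMI pools. Ptgs2, the inducible cyclooxygenase of prostaglandin synthesis, had 365, 420, 306 and 253 after AMI against 37.1, 36.1, 39.1 and 55.1 in homeostasis (2.97 ± 0.17, adjusted p = 4.29e-07). The interleukin 1 receptor Il1r1 had 211, 209, 216 and 199 after AMI against 85.7, 68.1, 82.5 and 91.2 in homeostasis (1.35 ± 0.10), and the acute phase gene Saa3 rose by 2.82 ± 0.33.

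Genes that handle retinoids moved apart. Adh1, which oxidizes retinol, had 14.7, 6.37, 8.87 and 15.5 after AMI against 142, 137, 65.9 and 96.5 in homeostasis (-3.18 ± 0.28, limma, adjusted p = 9.91e-06). Cyp26b1, which breaks down retinoic acid, had 7.31, 1.19, 3.56 and 3.76 after AMI against 36.2, 39.3, 13.3 and 19.6 in homeostasis (-2.53 ± 0.40, adjusted p = 3.88e-04). Aldh1a2, which makes retinoic acid, had 39.6, 44.2, 49.9 and 29.3 after AMI against 16.7, 22.5, 16.2 and 16.7 in homeostasis (1.12 ± 0.17, adjusted p = 2.65e-04). None of these 3 genes overlapped between the groups, beside 40.6% of all tested genes without overlap. Adh1 and Cyp26b1 were named by a rule that asked for no overlap.

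Of 3 tested genes of red blood cells and platelets, 1 was higher and 2 were lower, and of 4 tested Schwann, epicardial and adipocyte genes 1 was higher and 1 lower, beside 21.4% and 22.0% of all tested genes. The hemoglobin gene Hba-a1, which has a near-identical copy, had 6.41, 9.73, 6.93 and 5.32 after AMI against 17.9, 22.9, 18.6 and 23.4 in homeostasis (-1.44 ± 0.18, limma, adjusted p = 8.34e-05).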
